A study of Mus musculus with 12 samples.

Results

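The ATF4 amino acid and tRNA synthetase program is a set of 38 genes that supply amino acids, one-carbon units and charged tRNAs, together with the stress regulators around the transcription factor ATF4. The set was named by gene symbol with earlier results of these data known, and all 38 genes were listed in all 5 tables of comparisons deposited by the authors, out of 16399 genes listed in at least 1 table. They comprised 9 stress and regulatory genes, 11 enzymes of amino acid and one-carbon metabolism, 6 amino acid transporters and 12 cytosolic tRNA synthetases. RNA had been sequenced by exome capture from tumours of MC38, a mouse colon carcinoma cell line, with C57BL/6 albino given as the strain. The tumours had been dissociated, and fragments of 40 to 100 µm were cultured in collagen in microfluidic chips for 6 days. The aPD-1 cultures received the PD-1 antibody RMP1-14 at 10 µg/mL, the aPD-1+CD8 cultures received RMP1-14 and an antibody to CD8, each at 10 µg/mL, and the IFNg cultures received interferon-gamma protein at 100 ng/mL. The IgG cultures received the control antibody 2A3 at 10 µg/mL. Each group had 3 samples, and neither an antibody in the IFNg cultures nor a control antibody beside aPD-1 is named in the labels. Such cultures hold whichever tumour, stromal and immune cells survive in them, and in bulk RNA fewer cells of a type and less RNA per cell cannot be told apart. Whether the 3 samples of a group are separate animals or separate cultures is not stated in the labels, so the spread behind each p-value is that among these samples and may be technical.

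ATF4 is translated preferentially when the initiation factor eIF2 is phosphorylated, as happens under amino acid shortage or endoplasmic reticulum stress, a pathway called the integrated stress response. The protein binds DNA as a dimer with C/EBP proteins at C/EBP-ATF response elements (CARE) and raises transcription of amino acid transporters, of enzymes that make serine, glycine, asparagine and proline, and of the enzymes that load amino acids onto tRNAs. In proliferating tumour cells the same genes also respond to the growth regulators mTORC1 and Myc. Because control of ATF4 is largely translational, its mRNA reports only part of its activity.

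The promoter sequences are shown first because CARE sites are the sequence feature by which this program is known. Promoters ran from 250 bases before to 50 bases after the annotated transcript start, in RefSeq for GRCm38.p6, and 32 of the 38 genes had at least 1 of them. Those without an entry were Slc7a5, Slc1a5, Nars, Wars, Lars and Cars. The CARE core TGATGNAA, sought on both strands, occurred in promoters of 11 of the 32 genes (34.4%), against 1219 of 27025 genes with a promoter in the table (4.51%). The genes were gathered as known members of the ATF4 program, so this share is a description. For each of the 11 genes 1 match is printed below with 10 bases on either side, read along the strand that holds the core, which is in capitals.
Chac1: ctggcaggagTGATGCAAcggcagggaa
Trib3: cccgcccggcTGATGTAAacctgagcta
Vldlr: ctaggagcgcTGATGCAActattgctgc
Asns: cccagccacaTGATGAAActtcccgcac
Pycr1: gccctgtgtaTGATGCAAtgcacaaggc
Slc1a4: aggctggagaTGATGCAAcgcaggaggc
Aars: cagagcgctcTGATGAAAagtgacccgc
Gars: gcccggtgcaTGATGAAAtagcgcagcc
Iars: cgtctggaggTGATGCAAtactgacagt
Tars: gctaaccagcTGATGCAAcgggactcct
Yars: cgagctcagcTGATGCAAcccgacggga

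The open position of the core was most often C, as in the matches of Chac1, Pycr1 and Iars, and it was A in the matches shown for Asns, Gars and Aars and T in Trib3. All 11 genes with a match were among those that fell in the aPD-1 cultures, of 28 genes with a promoter that fell. The 4 genes with a promoter that did not pass, Cebpg, Mthfd1l, Slc38a2 and Mars, had no match in this window. Because 28 of the 32 genes with a promoter fell, most matches had to lie among them. A link between the motif and the decrease was not tested. The 250 bases before the start are printed for the asparagine synthetase gene Asns, which gave the classic amino acid response element, and for Chac1, whose level spread most over the 4 groups, with the core in capitals on either strand. That of Asns lies at chr6:7693210-7693459 of GRCm38.p6 on the minus strand, and that of Chac1 at chr2:119350992-119351241 on the plus strand.
Asns: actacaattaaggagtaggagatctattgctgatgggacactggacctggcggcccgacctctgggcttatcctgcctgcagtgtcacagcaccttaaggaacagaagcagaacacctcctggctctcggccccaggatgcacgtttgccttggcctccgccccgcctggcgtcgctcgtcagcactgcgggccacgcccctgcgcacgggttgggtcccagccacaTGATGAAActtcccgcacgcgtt
Chac1: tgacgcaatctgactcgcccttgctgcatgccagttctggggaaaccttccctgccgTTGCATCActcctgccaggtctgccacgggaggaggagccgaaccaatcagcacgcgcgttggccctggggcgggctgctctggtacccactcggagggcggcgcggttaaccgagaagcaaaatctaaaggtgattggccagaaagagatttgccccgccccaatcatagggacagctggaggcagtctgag

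The E-box CACGTG, a site of Myc and related factors, occurred in 4 of the 32 genes (12.5%), Aars, Iars, Tars and Aldh18a1, against 8.09% of all genes in the table. The core of the interferon-stimulated response element, taken as GAAA, then 2 bases of any kind, then GAAA, on either strand, occurred in 2 of the 32 (6.25%), Ppp1r15a and Vldlr, against 3.99%. No match of one motif overlapped a match of another.

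**Figure D1:**
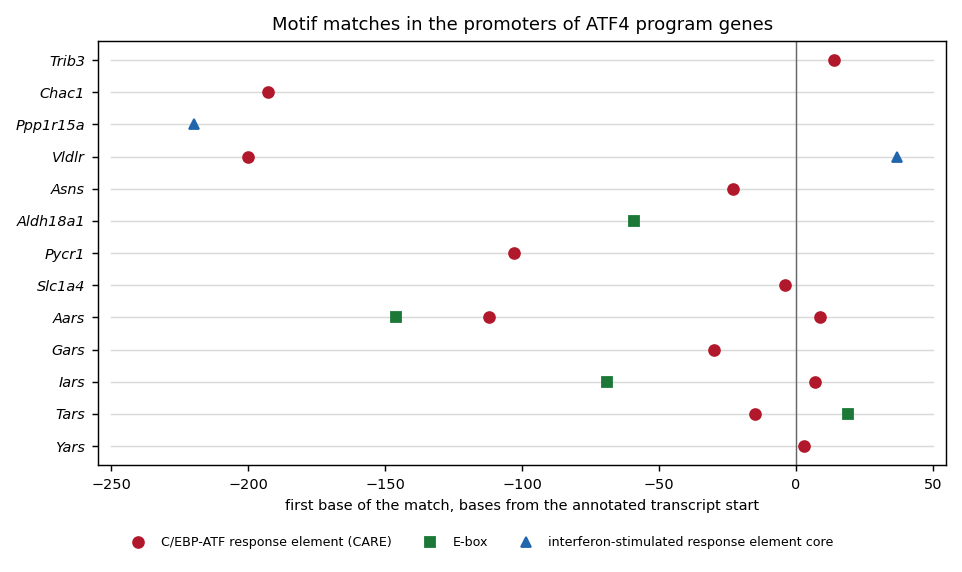
Positions of motif matches in the promoters of the 13 genes with at least 1 match: the horizontal axis gives the first base of the match relative to the annotated transcript start, and each row is a gene. In Vldlr the CARE match and the interferon element lie in different promoters, each placed relative to its own start. Red circles are CARE matches, green squares E-boxes and blue triangles interferon-stimulated response element cores, and a CARE match lies within 30 bases of the start in Asns, Gars, Tars, Slc1a4, Yars, Iars, Trib3 and Aars.

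Per table, the deposited mean counts added up to 1.03e+07 to 1.16e+07, and the number of genes tested ranged from 11478 to 15304. The ribosomal RNA precursor Rn45s made up 27.8% to 29.6% of these sums. Defining markers of several cell types were at or near 0. The epithelial markers Krt8, Cdh1 and Vil1 had mean counts of 2.49, 1.83 and 2.31 for aPD-1 v IgG per the authors' deposited table. The other 4 of 7 epithelial markers were not in all tables, so these markers do not identify the tumour cells here. Of 10 T and NK cell markers 3 were in all tables, and their summed level was between 5.74 and 12.9 in the 4 groups. Most of that sum was Ptprc, at 4.54 with aPD-1 and 11.9 with IgG. The other 2 summed to between 0.299 and 1.19. Fibroblast markers differed between the groups. The summed level of 7 of 8 markers was 9659 with aPD-1, 2804 with aPD-1+CD8 and 2920 with IFNg, against 3093 with IgG. Only Pdgfrb was lower with aPD-1, at 522 against 636 with IgG. The sum with IFNg hides opposite directions, such as Dcn at 1043 against 630 with IgG and Col1a1 at 395 against 911. Ribosomal protein genes moved as well: 10 of 10 summed to 40568 with aPD-1, 55818 with aPD-1+CD8 and 48555 with IFNg, against 54849 with IgG. The deposited values hold no measure of RNA quality, and these sums do not give one. Of 4 endothelial markers only Cdh5 was above a level of 1.67, at 89.7 with aPD-1, 28.3 with aPD-1+CD8 and 52.5 with IFNg, against 27.7 with IgG. Macrophage markers, 9 of 10, summed to 207 with aPD-1, 200.4 with aPD-1+CD8 and 516 with IFNg, against 225 with IgG. The high sum with IFNg was that of Csf1r alone, at 366 with IFNg against 27.7 with IgG. Csf1r was not called higher in IFNg v IgG or in IFNg v aPD-1, and its level carries no error. The other 8 summed to 188 with aPD-1, 172 with aPD-1+CD8 and 150.4 with IFNg, against 197 with IgG. The part of any of these in the results below was not tested.

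The tables hold no single samples, so a mean per group was solved for each gene. Each deposited mean count is the average over 2 groups of equal size, and 3 tables that join 3 groups therefore fix the mean of each. The tables did not share 1 scaling, so each was first rescaled to a median ratio matching that of the deposited fold changes, over the 5706 genes whose mean count reached 100 in every table. The IgG and aPD-1 means, which could each be solved along 2 routes, then differed by at most 0.319% and 0.766% between routes in any of the 38 genes. Without rescaling these largest gaps were 3.84% and 25.5%. These group means, called levels here, are in normalized counts and carry no standard error, and gene length was not taken into account, so levels are compared between groups and not between genes.

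The aPD-1 cultures had the lowest level of the 4 groups in 37 of the 38 genes, and Slc38a2 was the exception. The median gene stood at 42.7% of its IgG level with aPD-1, at 107% with aPD-1+CD8 and at 105% with IFNg, where the median over the 5706 genes was 98.6%, 99.7% and 98.3%. With aPD-1 the 38 genes ranged from 16.4% of the IgG level for Chac1 to 120% for Slc38a2. With aPD-1+CD8 they ranged from 97.8% for Eprs to 137% for Ppp1r15a, and with IFNg from 67.2% for Trib3 to 200.1% for Chac1. Without rescaling, levels above IgG were found for 4 genes in place of 36 with aPD-1+CD8, for 14 in place of 25 with IFNg and for 1 under either scaling with aPD-1, so positions relative to IgG depend on the scaling in all but the aPD-1 cultures.

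**Figure D2:**
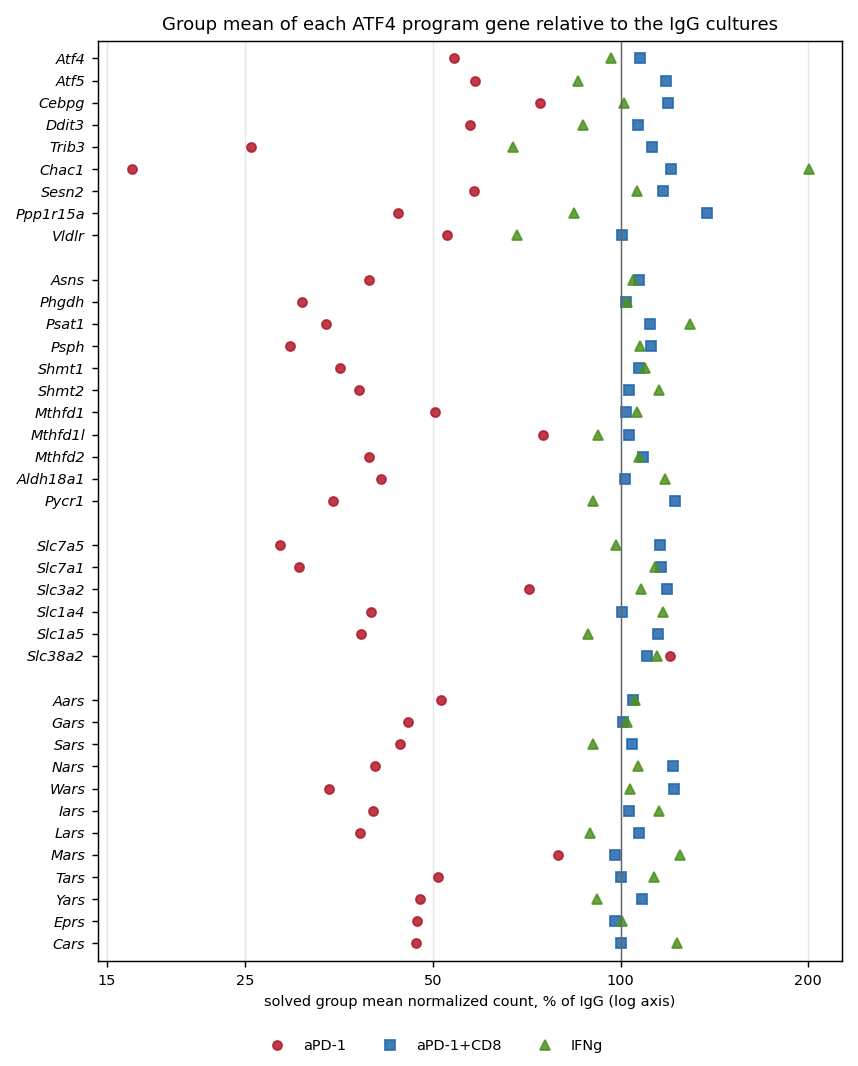
Solved group mean of each of the 38 genes as a percentage of its mean in the IgG cultures, on a logarithmic axis, with genes in rows grouped by role. The aPD-1 points (red circles) lie below 100 for all genes but Slc38a2, whereas the aPD-1+CD8 points (blue squares) lie between 97.8 and 137 and the IFNg points (green triangles) between 67.2 and 200.1.

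The comparison of aPD-1 with IgG asked what PD-1 blockade changed. Of the 38 genes 34 fell and 0 rose, whereas of all 12024 tested genes 18.5% were called, 10.0% lower and 8.5% higher. A gene was called when its adjusted p in the authors' deposited table, from DESeq2 over all genes tested, was under 0.05. The median log2 fold change was -1.18 over the 38 genes and 0.01 over all genes tested. The members were chosen with such results known, so these counts describe the set and do not test it. Fibroblast markers rose in the same comparison in 4 cases and ribosomal protein genes fell in 4 of 10, per the authors' deposited table, and their part was not tested. The Wald scores of all tested genes in this comparison spread with a robust SD of 1.69, wider than the 1 assumed by the test. Against a null of that width 27 of the 38 remained, and the calls of Atf5, Ddit3, Sesn2, Ppp1r15a, Psat1, Pycr1 and Slc3a2 were lost.

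**Figure D3:**
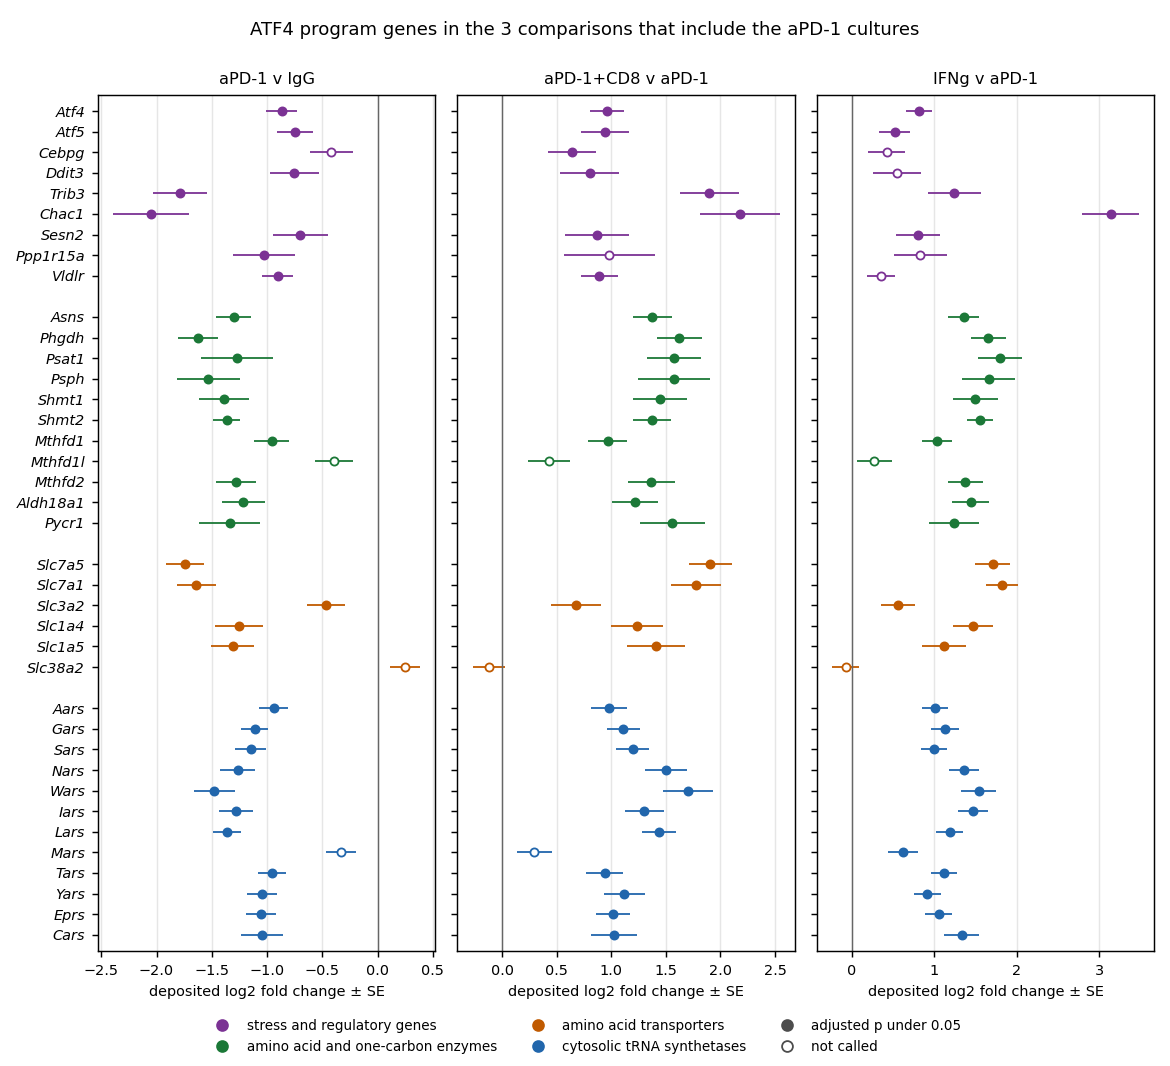
Deposited log2 fold change with its standard error for each gene in the 3 comparisons that include the aPD-1 cultures, which share those samples: left aPD-1 over IgG, middle aPD-1+CD8 over aPD-1, right IFNg over aPD-1. Filled points have an adjusted p under 0.05, which holds for 34, 34 and 32 of the 38 genes, and colours mark the roles.

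Among the stress and regulatory genes 8 of 9 fell with aPD-1, of which 4 kept their call against the wider null. Atf4 itself had a level of 2419.6 with aPD-1, 4822 with aPD-1+CD8 and 4329 with IFNg, against 4481 with IgG. Its log2 fold change in aPD-1 v IgG was -0.87 ± 0.14 (SE, adjusted p = 1.2e-08) in the authors' deposited table. The mRNA of the central factor thus stood at 54.0% of its IgG level with aPD-1, and close to that level in the other groups. Atf5, a related factor induced by the same pathway, changed by -0.75 ± 0.16 in the authors' deposited table. Cebpg, which encodes a dimer partner of ATF4, was at -0.42 ± 0.19 without passing (adjusted p = 0.123, authors' deposited table).

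The steepest decreases of this group were those of Chac1 and Trib3. Chac1 encodes an enzyme that degrades glutathione and is a sensitive reporter of ATF4. Its level was 9.61 with aPD-1, 70.4 with aPD-1+CD8 and 117 with IFNg, against 58.4 with IgG, so that the lowest group rested on few counts. In the authors' deposited table it fell by 2.05 ± 0.34 in log2 in aPD-1 v IgG. Trib3, a pseudokinase that restrains ATF4 and AKT, had a level of 68.3 with aPD-1, 301 with aPD-1+CD8 and 180.0 with IFNg, against 268 with IgG, and changed by -1.79 ± 0.25 in the authors' deposited table. Both genes lay far below the other groups with aPD-1, and they differed in the IFNg cultures, where Chac1 was above and Trib3 below its IgG level.

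The remaining regulators moved less. Ddit3, which encodes the pro-apoptotic factor CHOP, changed by -0.75 ± 0.22, and Ppp1r15a, whose product GADD34 directs the dephosphorylation of eIF2, by -1.03 ± 0.28, in the authors' deposited table. Sesn2, a leucine sensor that inhibits mTORC1, was at -0.70 ± 0.25 (adjusted p = 0.0293) in the authors' deposited table. Vldlr, a lipoprotein receptor with a CARE match in its promoter, had a level of 2674 with aPD-1, 5085 with aPD-1+CD8 and 3451 with IFNg, against 5068 with IgG. It was low in the aPD-1 and the IFNg cultures, with a change of -0.90 ± 0.14 in aPD-1 v IgG in the authors' deposited table.

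Among the enzymes of amino acid and one-carbon metabolism 10 of 11 fell with aPD-1, with a median log2 change of -1.30. The serine synthesis pathway runs through PHGDH, PSAT1 and PSPH, and all of its enzymes fell. Phgdh, the first step, had a level of 364 with aPD-1, 1204 with aPD-1+CD8 and 1209.6 with IFNg, against 1181 with IgG, a change of -1.62 ± 0.18 (adjusted p = 1.2e-17) in the authors' deposited table. Psat1 changed by -1.27 ± 0.33 and Psph by -1.53 ± 0.29 in the authors' deposited table. Psat1 had a level of 255 with aPD-1, 845 with aPD-1+CD8 and 978 with IFNg, against 757 with IgG, and Psph one of 25.8 with aPD-1, 97.9 with aPD-1+CD8 and 93.8 with IFNg, against 87.4 with IgG. The aPD-1 level was thus at 29.5% to 33.7% of the IgG level in each step of the pathway.

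Serine feeds the folate cycle through the hydroxymethyltransferases, of which SHMT2 is mitochondrial and SHMT1 cytosolic. Shmt2 had a level of 1749 with aPD-1, 4729 with aPD-1+CD8 and 5303 with IFNg, against 4594 with IgG, and Shmt1 one of 56.7 with aPD-1, 171 with aPD-1+CD8 and 175 with IFNg, against 159 with IgG. Both genes fell, with Shmt2 at -1.37 ± 0.12 (adjusted p = 1.7e-25) and Shmt1 at -1.39 ± 0.22 in aPD-1 v IgG in the authors' deposited table. Mthfd2, the mitochondrial dehydrogenase of the cycle, was at -1.28 ± 0.18 and Mthfd1, its cytosolic counterpart, at -0.96 ± 0.16 in the authors' deposited table. Mthfd1l, which releases formate from mitochondria, did not pass, at -0.40 ± 0.17 (adjusted p = 0.0923, authors' deposited table). Its level was 246 with aPD-1, 337 with aPD-1+CD8 and 300.5 with IFNg, against 327 with IgG.

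Asns, whose product makes asparagine from aspartate and glutamine, had a level of 621 with aPD-1, 1685 with aPD-1+CD8 and 1650.3 with IFNg, against 1576 with IgG. It changed by -1.30 ± 0.16 (adjusted p = 1.1e-14) in the authors' deposited table. The enzymes of proline synthesis fell as well. Aldh18a1, the enzyme that starts proline synthesis from glutamate, was at -1.21 ± 0.19 and Pycr1, which completes it in mitochondria, at -1.34 ± 0.27, in the authors' deposited table.

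Of the 6 transporters 5 fell with aPD-1. SLC7A5 and SLC3A2 form the exchanger LAT1-4F2hc, which imports leucine and other large neutral amino acids. Slc7a5 had a level of 1734 with aPD-1, 7059 with aPD-1+CD8 and 5994 with IFNg, against 6099.7 with IgG, and changed by -1.74 ± 0.17 (adjusted p = 2.1e-22) in the authors' deposited table. Slc3a2, the heavy chain that other transporters use too, had a level of 377 with aPD-1, 626 with aPD-1+CD8 and 569 with IFNg, against 528 with IgG, a change of -0.47 ± 0.17 (adjusted p = 0.0378) in the authors' deposited table. The 2 chains of 1 transporter thus stood at 28.4% and 71.4% of their IgG levels with aPD-1, and a difference between these genes was not tested.

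Slc7a1, the carrier of arginine and lysine, changed by -1.64 ± 0.17, Slc1a5, a carrier of glutamine, by -1.31 ± 0.19, and Slc1a4, a carrier of serine and alanine, by -1.25 ± 0.21, in the authors' deposited table. Slc38a2 encodes SNAT2, a sodium-coupled carrier of small neutral amino acids that is induced when amino acids run short. Its level was 3823 with aPD-1, 3512 with aPD-1+CD8 and 3650.4 with IFNg, against 3189.8 with IgG. It was the only gene of the set with a positive change in aPD-1 v IgG, 0.25 ± 0.13 without passing (adjusted p = 0.209, authors' deposited table).

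Of the 12 tRNA synthetases 11 fell with aPD-1, with a median log2 change of -1.09. Lars, which loads leucine, had a level of 1081 with aPD-1, 3022 with aPD-1+CD8 and 2519.8 with IFNg, against 2824 with IgG, a change of -1.36 ± 0.13 (adjusted p = 1.7e-24) in the authors' deposited table. Wars, which loads tryptophan, had a level of 135 with aPD-1, 484 with aPD-1+CD8 and 412 with IFNg, against 397 with IgG, and it changed by -1.48 ± 0.19 in the authors' deposited table. Wars was the lowest of the synthetases relative to IgG, at 34.0%. Gars, for glycine, had a level of 3167 with aPD-1, 7017 with aPD-1+CD8 and 7116 with IFNg, against 6949.8 with IgG, and changed by -1.11 ± 0.12 in the authors' deposited table.

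The other synthetases that fell had log2 changes between -1.28 and -0.94 in the authors' deposited table: Iars for isoleucine at -1.28 ± 0.15, Nars for asparagine at -1.27 ± 0.16, Sars for serine at -1.15 ± 0.14, Tars for threonine at -0.95 ± 0.13 and Aars for alanine at -0.94 ± 0.13. Eprs, the joint enzyme for glutamate and proline, Cars for cysteine and Yars for tyrosine lay within that range. Mars, for methionine, did not pass, at -0.33 ± 0.14 (adjusted p = 0.0718, authors' deposited table). Its level was 654 with aPD-1, 808 with aPD-1+CD8 and 1026 with IFNg, against 824 with IgG.

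Other genes of the pathway were taken from lists that had been written down with the same knowledge. Among ATF4 targets outside the set 14 of 22 tested fell with aPD-1 and 3 rose, with a median log2 change of -0.74. Over all tested genes 10.0% fell and 8.5% rose. The mitochondrial protease Lonp1 at -1.52 ± 0.15, the tRNA exporter Xpot at -1.02 ± 0.12 and the alanine transaminase Gpt2 at -1.23 ± 0.16 fell, in the authors' deposited table. The members that rose were the growth factor Vegfa at 1.73 ± 0.15, the mTORC1 inhibitor Ddit4 at 1.31 ± 0.18 and the histone demethylase Kdm7a at 0.82 ± 0.18, in the authors' deposited table. Vegfa and Ddit4 are also targets of hypoxia signalling.

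The kinases, eIF2 subunits and other machinery upstream of ATF4 had 3 of 19 genes lower and 1 higher, with a median of -0.15, counts near the 10.0% lower and 8.5% higher over all tested genes. The 4 included the kinase of the endoplasmic reticulum, Eif2ak3 (PERK), at 0.72 ± 0.22, Eif2ak2 (PKR), which senses double-stranded RNA, at -0.82 ± 0.23 and the subunit gene Eif2s2 at -0.80 ± 0.14, in the authors' deposited table. Cytosolic synthetases outside the set and their scaffold proteins fell in 7 of 12 cases and rose in 0, with a median of -0.44, among them Rars at -0.98 ± 0.17 and Kars at -0.61 ± 0.13 in the authors' deposited table. Of 17 genes listed as mitochondrial tRNA synthetases only, 1 fell and 0 rose, with a median of -0.04. The 1 was Mars2, the mitochondrial enzyme for methionine, at -1.10 ± 0.34 in the authors' deposited table. A difference between the cytosolic and the mitochondrial enzymes was not tested.

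Further enzymes of folate, glycine, methionine, proline and glutamine metabolism fell in 11 of 24 cases and rose in 0, with a median of -0.45. They included Aldh1l2, a mitochondrial enzyme that oxidises formyl-folate, at -1.32 ± 0.19 in the authors' deposited table. Other amino acid transporters and amino acid sensors fell in 4 of 21 cases and rose in 0, with a median of -0.05, near that of all genes. Over all tested genes 10.0% fell and 8.5% rose.

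**Figure D4:**
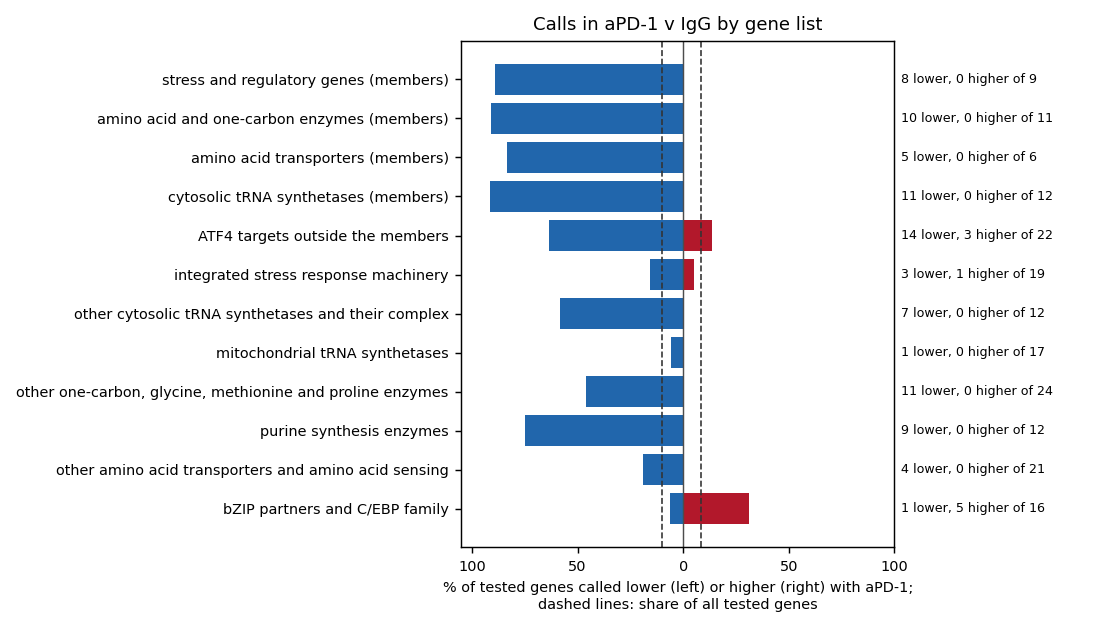
Share of the tested genes of each list called lower (blue, to the left) or higher (red, to the right) in aPD-1 v IgG, with the counts at the right margin and dashed lines at the shares over all tested genes, 10.0% lower and 8.5% higher. The 4 roles of the set have 8 of 9, 10 of 11, 5 of 6 and 11 of 12 genes lower, against 1 of 17 mitochondrial synthetases.

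The cultures given both antibodies were next set against those given aPD-1 alone, which addresses the effect of adding the CD8 antibody. This comparison shares the aPD-1 samples with the comparison above, so an opposite direction in the pair is not independent. Of the 38 genes 34 rose and 0 fell in the authors' deposited table, where 14.8% of all tested genes were called, 7.82% higher and 6.94% lower. The median log2 change was 1.21 over the 38 genes and 0.00 over all genes tested. By role, 8 of 9 stress and regulatory genes, 10 of 11 enzymes, 5 of 6 transporters and 11 of 12 synthetases rose. Against a null as wide as the observed scores 4 of 9 stress and regulatory genes remained, with 9 of 11 enzymes, 4 of 6 transporters and 10 of 12 synthetases. The calls lost were those of Atf5, Cebpg, Ddit3, Sesn2, Psph, Slc3a2 and Cars. In the same comparison ribosomal protein genes rose in 4 of 10 cases and fibroblast markers fell in 3, per the authors' deposited table, and their part was not tested.

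Chac1 had the largest log2 change of the set at 2.18 ± 0.36, followed by Slc7a5 at 1.91 ± 0.20, Trib3 at 1.90 ± 0.27, Slc7a1 at 1.78 ± 0.23 and Wars at 1.70 ± 0.23, in the authors' deposited table. Atf4 rose by 0.96 ± 0.16 and its partner Cebpg by 0.64 ± 0.22 (adjusted p = 0.0295, and 0.533 against the wider null), in the authors' deposited table. Those that did not pass were Mthfd1l at 0.43 ± 0.19, Mars at 0.29 ± 0.16, Slc38a2 at -0.12 ± 0.15 and Ppp1r15a at 0.98 ± 0.42 in the authors' deposited table. The first 3 of these had also not passed in aPD-1 v IgG. Outside the set, 14 of 22 other ATF4 targets rose, 2 fell, namely Vegfa and Ddit4, and 1 of 17 mitochondrial synthetases rose. Over all tested genes 7.82% rose and 6.94% fell.

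Interferon-gamma was also compared with aPD-1, again with the same aPD-1 samples. Of the 38 genes 32 were higher in the IFNg cultures and 0 lower in the authors' deposited table, where 15.5% of all tested genes were called, 8.39% higher and 7.13% lower. The median log2 change was 1.16, against 0.00 over all genes tested. All 12 synthetases were called higher, among them Mars at 0.62 ± 0.18 (adjusted p = 0.00596), which had not passed in the other comparisons, in the authors' deposited table. The call of Mars was lost against the wider null (DESeq2 scores, adjusted p = 0.297), as were those of Slc3a2, Slc1a5 and Pycr1. Chac1 was at 3.14 ± 0.34 (adjusted p = 5.6e-18), the largest value of the set in this comparison, in the authors' deposited table. Of the stress and regulatory genes 5 of 9 were called, and Vldlr at 0.36 ± 0.17, Ddit3 at 0.55 ± 0.29, Cebpg at 0.43 ± 0.23 and Ppp1r15a at 0.83 ± 0.32 were not, in the authors' deposited table. Against the wider null 2 of 9 remained, Atf4 and Chac1, without Atf5, Trib3 and Sesn2. In the same comparison 4 fibroblast markers and 1 macrophage marker were lower with IFNg and 1 of 10 ribosomal protein genes was higher, per the authors' deposited table, and their part was not tested.

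Against IgG, interferon-gamma changed 2 of the 38 genes, 1 in each direction. That count is near the share of all tested genes called, 4.1%, with 2.73% higher and 1.38% lower. Among ATF4 targets outside the set 4 of 19 tested were lower and 0 higher. They included Vegfa at -0.82 ± 0.12, Ddit4 at -0.85 ± 0.20 and Ero1l at -0.74 ± 0.20, in the authors' deposited table. Vegfa and Ddit4, also targets of hypoxia signalling, had risen in aPD-1 v IgG. Chac1 rose by 0.81 ± 0.22 (adjusted p = 0.00965) and Vldlr fell by 0.52 ± 0.13 (adjusted p = 0.0042), per the authors' deposited table. Chac1 was thus called lower with aPD-1 and higher with IFNg relative to the same IgG samples, with levels of 9.61 with aPD-1 and 117 with IFNg, against 58.4 with IgG. Trib3, at -0.42 ± 0.25, and Atf4, at -0.04 ± 0.14, were not called, per the authors' deposited table. Psat1 had an unadjusted p of 0.0224 and an adjusted p of 0.269, at 0.35 ± 0.15 in the authors' deposited table. Wars, whose human counterpart is a classic interferon-gamma-induced gene, was at 0.06 ± 0.16 (adjusted p = 0.981) in the authors' deposited table. Its levels of 412 with IFNg and 397 with IgG lay close together. In the same comparison 1 fibroblast marker rose and 2 fell, and 1 macrophage marker fell, per the authors' deposited table, and their part was not tested.

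In aPD-1+CD8 v IgG 0 of the 38 genes were called by DESeq2, as were 0.0% of all 15304 tested genes. Under an unadjusted p of 0.05 there were 0 of the 38 and 57 of all genes, in the authors' deposited table. The deposited fold changes of this comparison are strongly shrunken toward 0. The 38 genes lay between -0.02 ± 0.09 for Eprs and 0.18 ± 0.11 for Nars, with 36 of them positive, in the authors' deposited table. By the rescaled levels 36 of the 38 stood above IgG, with a median of 107%, and without rescaling 4 did, Chac1, Ppp1r15a, Pycr1 and Wars. Under rescaling Ppp1r15a, at 151 with aPD-1+CD8 against 109.6 with IgG, and Pycr1, at 122 with aPD-1+CD8 against 99.6 with IgG, stood farthest above it. These levels carry no error. The Wald scores of all tested genes in this comparison had a robust SD of 0.715, narrower than the 1 assumed by the test. In the deposited test no difference between the aPD-1+CD8 and IgG cultures was detectable for these genes. With scores this narrow, that does not show that the levels were equal.

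**Figure D5:**
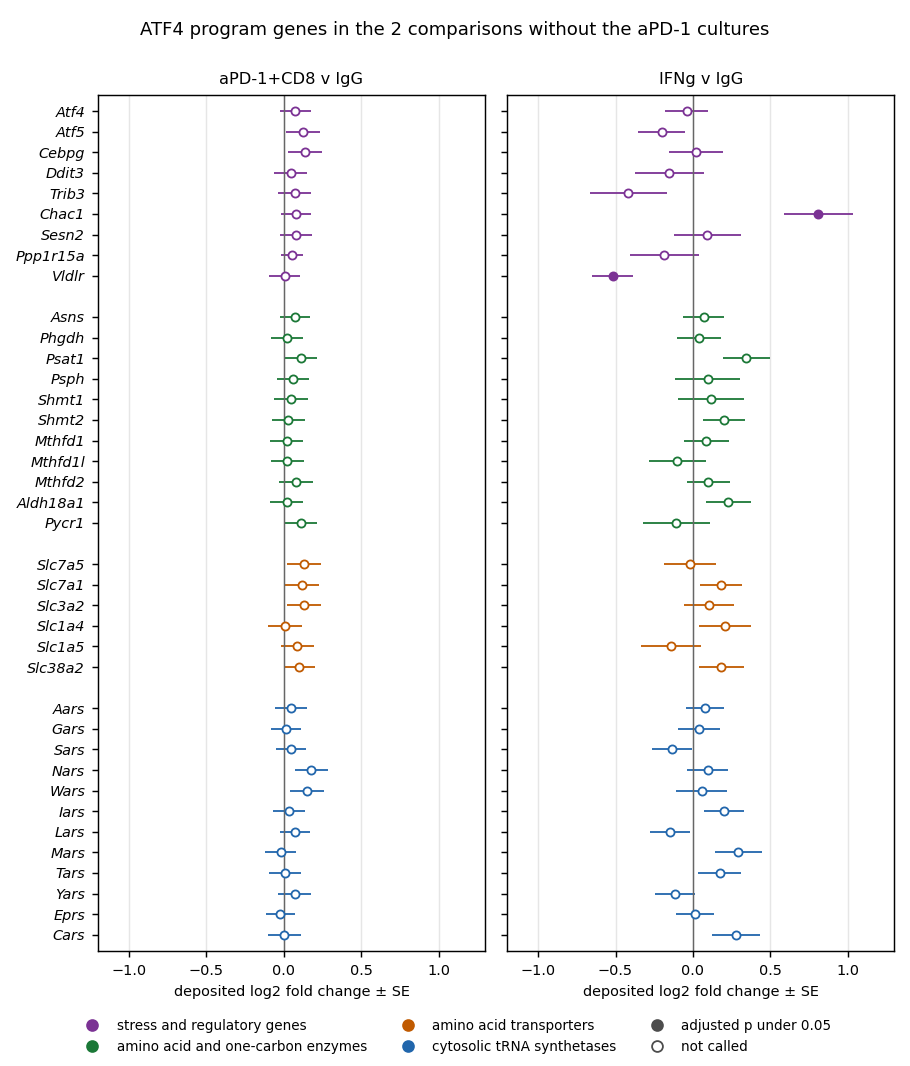
Deposited log2 fold change with its standard error for each gene in the 2 comparisons that do not include the aPD-1 cultures, on the same horizontal scale: left aPD-1+CD8 over IgG, right IFNg over IgG. Filled points, Chac1 and Vldlr in IFNg v IgG, have an adjusted p under 0.05, and all points of aPD-1+CD8 v IgG are open and lie between -0.02 and 0.18.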

How the data were processed

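All values derive from 5 comparison tables that the authors made with DESeq2 on the mm9 build, per the submitters' processing notes. The sources used here do not give its version, the aligner, the counting, the annotation or the use of strand, so reads shared with a pseudogene (Phgdh has one) or an antisense gene cannot be told apart. RNA input was 250 ng with exome capture, per the labels' protocols. Per the file headers, a table gives the mean normalized count (a signal averaged over both groups), the log2 fold change, its standard error, the Wald score, the p-value and the adjusted p-value. The deposited log2 values appear shrunken toward 0 and more so in some comparisons: among genes under a mean count of 10 the standard error had a median of 0.275 in aPD-1 v IgG, 0.133 in IFNg v IgG and 0.0217 in aPD-1+CD8 v IgG. Sizes are therefore not on 1 scale across comparisons.

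The tables held 0 columns of single samples, so the depth of single libraries is unknown and p-values are the authors'. Genes with an adjusted p under 0.05 were called, and genes without one were left out. Group levels were solved from the deposited mean counts after rescaling the tables by factors between 1 and 1.14, a step added after the data were seen, with numpy 2.4.6, pandas 2.3.3 and scipy 1.17.1. The solution was tested on simulated data. Groups follow the labelled treatment. All 38 genes could be named, and from other lists at most the 3 called genes with the smallest adjusted p in each direction, of which some are not reported here. Members and lists were chosen with earlier results of these data known. Mars was matched to its RefSeq promoter as Mars1. Alternatives were other adjusted p limits, a minimum fold change, other sets of genes for the adjustment, a null as wide as the observed scores, and other scalings.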

Additional observations from a re-analysis of the deposited data

How the results depend on the processing

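Counts of called genes stayed within 1.5 times under adjusted p limits of 0.01 and 0.1, a log2 change of at least 1, adjustment over all genes with a p-value or those whose mean count reached 10, and a null as wide as the observed scores, except in IFNg v IgG, where 0 of the 2 calls reached a log2 change of 1. Against the wider null 27 genes stayed called in aPD-1 v IgG, 27 in aPD-1+CD8 v aPD-1 and 25 in IFNg v aPD-1. Slc3a2 in IFNg v aPD-1 was also lost with adjustment over all genes with a p-value (DESeq2, adjusted p = 0.0551). The median log2 ratio of solved levels in aPD-1+CD8 v IgG was -0.19 without rescaling and 0.10 with it, where the deposited, shrunken fold changes gave 0.06; in IFNg v IgG it was -0.03 without rescaling and 0.07 with it. Without rescaling, the median of all genes shifted by up to 0.42 in log2. The signs of the medians in the 3 comparisons that include aPD-1 held under every setting run. No paired analysis was possible because the tables hold no single samples, and leaving out a library was not run for the same reason.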

Other observations

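Purine synthesis consumes the glycine and formyl units made by the serine and folate enzymes. Of 12 purine enzymes 9 fell and 0 rose in aPD-1 v IgG, where 10.0% of all tested genes fell and 8.5% rose. Their median log2 change was -0.67 against 0.01 over all genes tested. In aPD-1+CD8 v aPD-1, which shares the aPD-1 samples, 9 rose and 0 fell. There 7.82% of all tested genes rose and 6.94% fell. Atic, which carries out the last steps of the pathway, changed by -1.09 ± 0.15 and Prps1, which makes its ribose precursor, by -0.98 ± 0.15 in aPD-1 v IgG in the authors' deposited table.

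Among the C/EBP and related leucine zipper factors, possible partners of ATF4, 5 of 16 rose and 1 fell in aPD-1 v IgG, with a median log2 change of 0.14, where 8.5% of all tested genes rose and 10.0% fell. Cebpd rose by 3.66 ± 0.29 and Cebpb by 1.72 ± 0.15, while Atf6, a sensor of endoplasmic reticulum stress, fell by 0.93 ± 0.16, in the authors' deposited table. With aPD-1+CD8 against aPD-1, Cebpd was at -3.23 ± 0.30 and Cebpb at -1.42 ± 0.15 in the authors' deposited table. In IFNg v IgG, Batf2 rose by 3.14 ± 0.26 and the PKR gene Eif2ak2 by 0.98 ± 0.17, in the authors' deposited table.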
